A study of Mus musculus with 6 samples.

Results

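The comparison described here is that of MEL cells after 2 days in DMSO with the same cells before treatment, and it rests on 4 of the 6 mRNA-seq libraries of the study, the 2 labelled time 2 days and the 2 labelled time 0 days. MEL is a murine erythroleukemia line held at an early erythroid stage. The log-phase cultures, in MEM with fetal bovine serum, received 2% DMSO (a solvent that induces the line to differentiate) and no other inducer, and the day 0 cultures are the untreated controls. No untreated culture of day 2 was analysed here, so that DMSO and 2 days in culture cannot be told apart. The study calls the 2 libraries of each day biological replicates of cultured cells, and they are named cultures below, although no source used here says how far they were kept apart. The libraries of day 4 entered the statistical fit and are used here to ask which of the early changes were already complete at day 2. Every change was tested across all transcripts, with 1 transcript standing for each gene, which gave 12381 tested genes of 23896 with a symbol.

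Terminal erythroid differentiation turns a dividing progenitor into a cell devoted to hemoglobin. Erythroblasts switch on the globin genes, the enzymes of heme synthesis and the proteins of the red cell membrane under the control of factors such as GATA1, TAL1 and KLF1, and they shut down progenitor factors such as PU.1 and MYB. In MEL cells DMSO starts this programme only after a latent period, during which a growing share of the cells becomes committed to leave the cell cycle.

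In what follows a level is given as CPM, the share of a library's transcript counts after TMM scaling (1000000 in all), as the values of replicates 1 and 2 of a day. A change is the log2 fold change of day 2 over day 0 ± its standard error, from the quasi-likelihood test of edgeR with Benjamini-Hochberg adjustment over 18351 transcripts. A gene is called changed at an adjusted p below 0.05. In these bulk libraries, fewer cells of a kind and less RNA per cell cannot be told apart. CPM is not corrected for transcript length, so changes are read between days. Sums over a list, and the genes said to make up most of them, depend on transcript length as well.

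Counts on transcripts ranged from 39258359 to 53899476 in these 4 libraries and from 35294930 upward in the 6. Of the genes used to check the erythroid label, Gata1, Tal1, Klf1, Nfe2, Epor, Tfrc and Alas2 were detected in all 6 libraries, from 34.7 CPM for Nfe2 at day 2 upward. Among markers of other cells, Cd8a, Ms4a1, S100a8, S100a9, Ngp, Tpsb2, Prss34, Col3a1, Dcn, Lum and Cdh5 had no count in any library. The summed levels of the marker lists in the 4 libraries were 1.31 to 1.64 CPM for 9 genes of T and B cells, 14.7 to 16.96 CPM for 14 of granulocytes, monocytes and macrophages (most of it Prtn3, 10.8 and 13.6 CPM at day 0) and 20.02 and 17.6 CPM at day 0 against 6.80 and 7.67 at day 2 for 13 of fibroblasts, endothelium and epithelium (most of it Tek, 14.8 and 11.8 and then 5.44 and 6.29 CPM). Of the tested members of these 3 lists, 1 of 3 was called higher and 1 lower, 1 of 6 higher and 3 lower, and 6 of 6 lower, in the same order. The day 0 replicates lay further apart than those of day 2, with an SD of the log2 difference between replicates of 0.364 against 0.235. Of the 10454 genes that averaged 1 log2 CPM or more, 100 were more than 2-fold higher in replicate 2 of day 0 than in replicate 1, 5 were more than 2-fold higher in replicate 1, and 2 differed that much between the day 2 replicates. Of those 100 genes, 44 were among the falls of at least 2-fold described below, and values without that library are given where they matter.

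Of the 12381 genes, 7743 were called (62.5%), with 3841 higher at day 2 (31%) and 3902 lower (31.5%), and 5883 and 5756 were called without replicates 1 and 2 of day 2. These shares are the background for the groups below, in which about 31% of members would be called each way if they were like all genes. The changes reached at least 2-fold in 1388 higher genes (11.2%) and 1479 lower genes (11.9%), and more than 4-fold in 443 and 439. The split between rises and falls depended on scaling. With total counts in place of TMM factors the median gene moved from 0.01 to 0.21 on the log2 scale, and 5001 genes were called higher against 2881 lower. The medians of the gene groups given below had the same sign under both scalings except where stated. Where a group is said to have no gene called in a direction by edgeR, DESeq2 called none there either, and none had an unadjusted p under 0.05 unless a number is given.

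**Figure D1:**
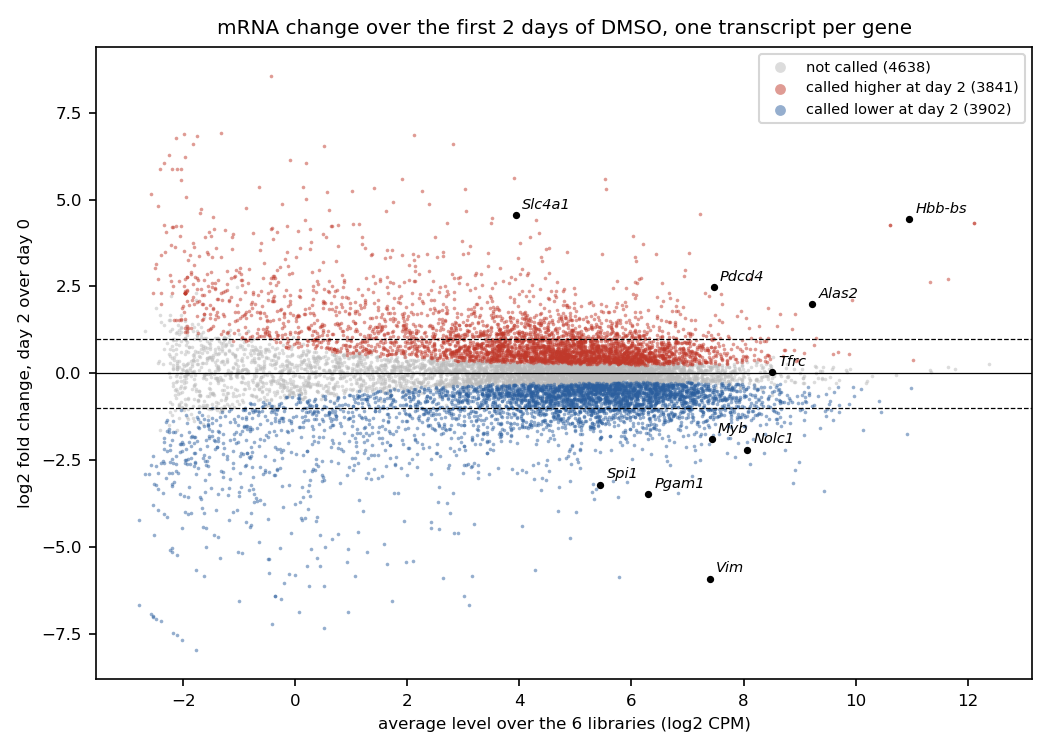
Log2 fold change of day 2 over day 0 (vertical axis) against the average level over the 6 libraries in log2 CPM (horizontal axis), 1 point per gene. Red points are the 3841 genes called higher, blue points the 3902 called lower and grey points those not called, and the dashed lines mark a 2-fold change; the rises and falls are about as many, and reach furthest among genes of low level.

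The genes with the largest rises had been almost silent. Ripor3 lay at 0.172 and 0.201 CPM at day 0 and at 8.57 and 10.1 at day 2 (5.62 ± 0.43, adjusted p = 2.4e-07). Apol11b, 1 of 3 apolipoprotein L family genes among the 12 largest rises, went from 0.760 and 0.443 to 22.4 and 34.9 CPM (5.60 ± 0.37, adjusted p = 2.7e-07). BC021767, which has only a clone-based name, went from 0.662 and 0.987 to 32.3 and 34.5 CPM (5.31 ± 0.32, adjusted p = 2.4e-07). In all 3 genes both day 2 cultures stood more than 10-fold above both day 0 cultures. For 4 of the 12 genes no day 0 library held more than 3 counts, and the fold is given as the ratio of summed counts after scaling, with an exact 95% interval that covers counting error only. Nptxr (a neuronal pentraxin receptor) had 3 counts in each day 0 library and 322 and 281 at day 2, a ratio of 99.96 (45.7 to 274). Apol10a went from 2 and 0 to 99 and 166 counts, a ratio of 132 (36.1 to 1094). The sialic acid-binding lectin Siglec1 (3 and 2 to 107 and 150 counts) and the metalloprotease gene Adam33 (1 and 2 to 58 and 66 counts) had ratios of 51.1 (21.6 to 159) and 41.1 (13.7 to 202). The other 5 were Apba1, Apol11a, Cacna1g (a calcium channel subunit), Retn (resistin) and Myo15, with log2 fold changes from 4.88 to 5.32 (Retn lay between 4.27 and 5.82 when 1 day 0 culture was left out). Apol10a, Apol11a and Apol11b are close paralogs, whose reads may have been shared.

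The largest falls included genes of the cytoskeleton and of the granules of mast cells and cytotoxic cells. Vim, which encodes the intermediate filament vimentin, lay at 450.5 and 531 CPM at day 0 and 9.51 and 6.88 at day 2 (-5.91 ± 0.15, adjusted p = 2.8e-08). Anxa2, a membrane-binding annexin, fell from 149.7 and 169 to 3.45 and 2.12 CPM (-5.85 ± 0.19, adjusted p = 4.2e-08). Hdc, the enzyme that makes histamine, fell from 59.1 and 53.97 to 1.29 and 0.956 CPM (-5.66 ± 0.18, adjusted p = 2.8e-08). In all 3 genes both day 0 cultures stood more than 40-fold above both day 2 cultures. Gzmb (granzyme B) fell from 24.5 and 22.8 to 0.359 and 0.203 CPM (-6.41 ± 0.36), and Fbp2, a fructose bisphosphatase, from 26.4 and 23.8 to 0.335 and 0.163 CPM (-6.67 ± 0.32). Others among the 12 were Cd200r3, Cd200r4 and Pilrb2, which are immunoglobulin-type receptors with close paralogs, Zbtb8b, Apoa1 and the tetraspanin Cd53, with log2 fold changes between -6.55 and -5.40. The sizes of some of these falls depended on single libraries, since leaving out 1 day 2 culture moved Zbtb8b to between -7.99 and -4.91, Cd200r3 to between -7.78 and -5.81 and Pilrb2 to -6.60 at the most. Of 8 tested mast cell and basophil markers, 6 were called lower and none higher (1 at an unadjusted p under 0.05), while total-count scaling added 2 higher calls. Their summed level over the list was 101 and 96.98 CPM at day 0 and 18.2 and 15.4 at day 2, most of it Hdc and the protease gene Mcpt2 (33.8 and 34.1 to 13.4 and 11.6 CPM, -1.44 ± 0.20), while the defining Cpa3, Fcer1a and Ms4a2 (a mast cell carboxypeptidase and subunits of the IgE receptor) were at 3.02 CPM or less in every library and fell too.

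The globin genes had the highest median of the 45 function lists. All 7 tested globin genes were called higher, with a median log2 fold change of 4.33 against 0.01 over all genes. The adult beta-globin gene Hbb-bs lay at 52.1 and 31.5 CPM at day 0 and 808 and 1002 at day 2 (4.44 ± 0.21, adjusted p = 2.3e-07). Hba-a2, an adult alpha-globin gene, went from 128 and 123 to 2255 and 2768 CPM (4.33 ± 0.16, adjusted p = 8.4e-08). The embryonic Hba-x rose as well, from 4.34 and 4.57 to 92.01 and 124 CPM (4.60 ± 0.31, adjusted p = 1.4e-06). No day 2 culture overlapped a day 0 culture for any of these. Hba-a1 and Hba-a2 had nearly the same counts in every library, as near-identical copies do when they share reads, and the level of each copy is therefore uncertain. The rise was not finished: from day 2 to day 4 all 7 genes were called higher again, Hbb-bs by 2.48 ± 0.21 on the log2 scale to 4969 and 5101 CPM.

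Genes of heme synthesis and transport were more often called higher than lower, and the largest fall was that of a breakdown gene. Of 20 tested genes, 11 were called higher and 4 lower, with a median of 0.51, and with total-count scaling 12 and 2. The other 5 were not called, and only 1 fall reached 2-fold. Alas2, the erythroid form of the first enzyme of the pathway, lay at 88.02 and 64.8 CPM at day 0 and 280.0 and 325 at day 2 (1.99 ± 0.16, adjusted p = 3.1e-06), and it rose more over the following step (2.23 ± 0.16, adjusted p = 5.6e-05) to 1323 and 1509.9 CPM. Abcb10, a mitochondrial transporter, rose from 71.1 and 79.9 to 248 and 270.4 CPM (1.78 ± 0.13). Alad, the second enzyme, rose from 164 and 118 to 425 and 503 CPM (1.72 ± 0.16). Hmox1, the inducible oxygenase that breaks heme down, went the other way, from 43.1 and 33.3 to 5.15 and 5.86 CPM (-2.79 ± 0.16, adjusted p = 2.8e-07), and stood at 5.01 and 5.63 CPM at day 4. The fall of Hmox1 was thus complete by day 2, while Alas2 went on rising. Hmox2 (-0.40) was also called lower, though not with total-count scaling (-0.21 at adjusted p = 0.16) nor without either day 2 library.

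Iron genes moved less as a group, and the transferrin receptor gene was not called. Of 24 tested genes, 10 were called higher and 5 lower, with a median of 0.08. Tfrc, the transferrin receptor through which erythroblasts take up iron, lay at 255 and 245 CPM at day 0 and 254 and 256 at day 2. The change was 0.03 ± 0.11 (adjusted p = 0.85, 95% interval -0.23 to 0.28), whereas the next step brought Tfrc to 550.1 and 614 CPM (1.19 ± 0.11, adjusted p = 1.4e-04). The mitochondrial iron importer Slc25a37 (mitoferrin) rose at once, from 40.2 and 44.5 to 113 and 131 CPM (1.53 ± 0.14, adjusted p = 7.9e-06). The iron exporter Slc40a1 (ferroportin) rose from 14.1 and 11.6 to 32.4 and 29.9 CPM (1.27 ± 0.13) and then fell back (-0.39 ± 0.13, adjusted p = 0.046). Isca1, an iron-sulfur assembly factor, was higher (0.90 ± 0.11), and Hspa9, a mitochondrial chaperone used in the same assembly, was lower, at 713 and 753 CPM against 329 and 286 (-1.26 ± 0.14). Fdx2 (-0.95) and Iscu (-0.55) were the other leading falls.

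Genes of the red cell membrane and its skeleton rose broadly. Of 32 tested, 20 were called higher and 8 lower, with a median of 1.00, and 16 rises reached 2-fold. Slc4a1, the anion exchanger band 3, lay at 0.221 and 0.242 CPM at day 0 and 4.86 and 6.17 at day 2 (4.56 ± 0.39, adjusted p = 6.4e-07), and reached 47.4 and 33.4 CPM at day 4. Epb42, which ties band 3 to the skeleton, went from 4.63 and 4.53 to 45.6 and 53.9 CPM (3.44 ± 0.13, adjusted p = 6.4e-08). Rhd, the Rh blood group protein, went from 12.5 and 10.4 to 118 and 131 CPM (3.45 ± 0.14, adjusted p = 8.4e-08). Of these 3 genes, Slc4a1 had made only its first step by day 2, and Rhd was at its day 4 level, with 110.2 and 137 CPM at day 4 and a later step of -0.01 ± 0.13 (adjusted p = 0.96). The members that fell included the glycerol channel gene Aqp9 (48.2 and 48.2 to 9.46 and 7.57 CPM, -2.50 ± 0.16), the hyaluronan receptor gene Cd44 (71.96 and 68.4 to 32.8 and 27.9 CPM, -1.21 ± 0.12) and the adducin gene Add2 (-0.98 ± 0.11).

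**Figure D2:**
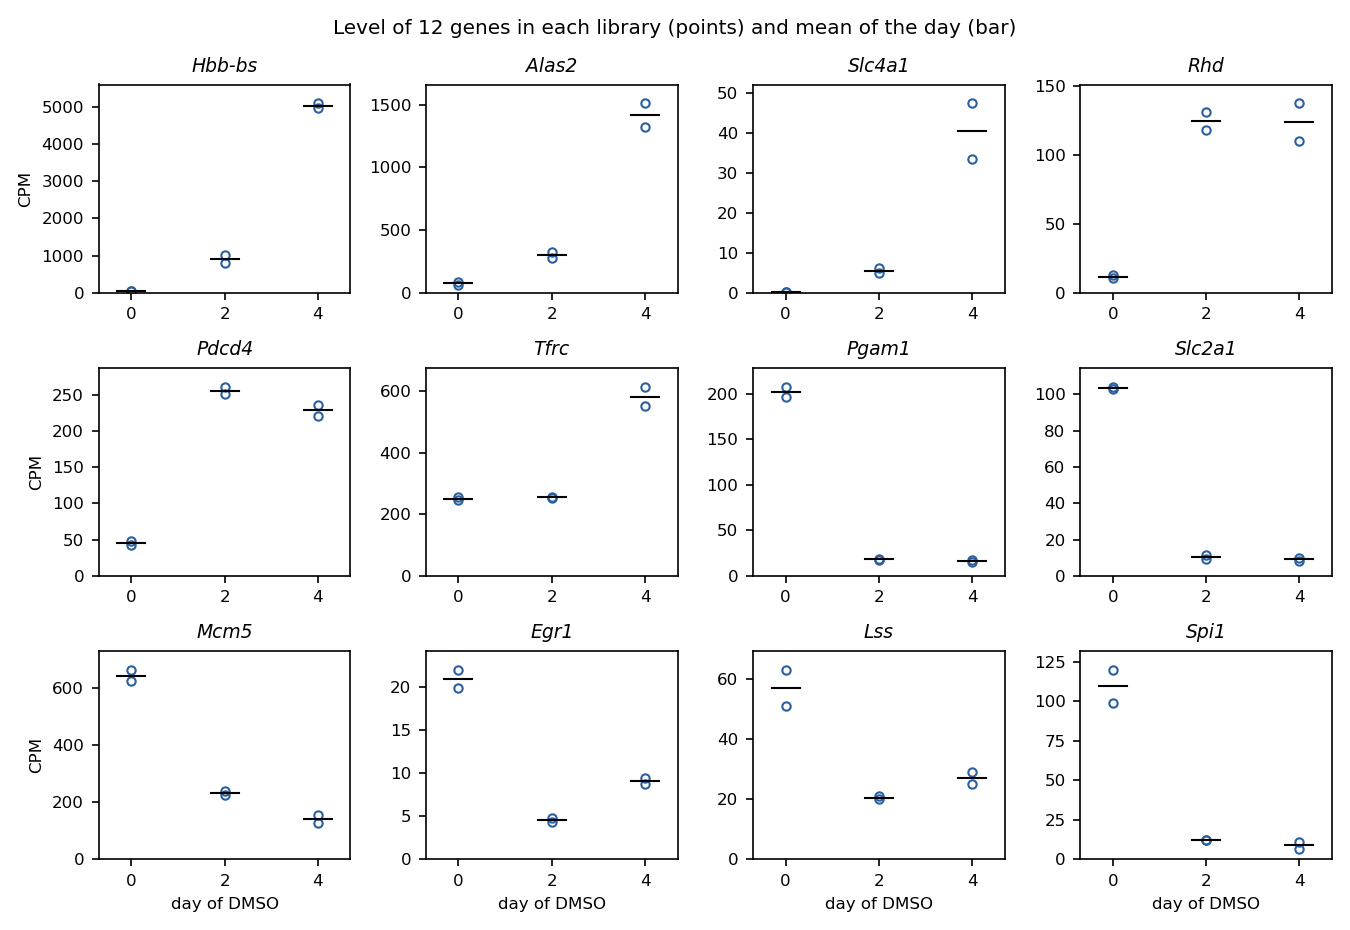
Levels in CPM (vertical axes, starting at 0) of 12 genes in each library at days 0, 2 and 4 of DMSO (horizontal axes); open circles are single libraries and the bar is the mean of the 2 of a day. Rhd and Pdcd4 were at or near their day 4 level at day 2, Pgam1 and Slc2a1 had fallen and stayed low, Tfrc was called higher only after day 2, and Egr1 and Lss fell and then rose again.

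The upstream bases of 4 genes are shown, each from a group in which most members were called in the same direction. Each is the called member with the largest change in its group's direction whose upstream bases hold a motif known for factors of that process. Genes on a chromosome that was set aside were not eligible. The sequences are the 250 bases before the annotated start in RefSeq on GRCm38.p6, 5′ to 3′ on the strand of the gene. Matches to the group's motif on either strand are in capitals. The beta-globin gene Hbb-bs (chr7:103827929-103828178, minus strand) has the CACCC box CCACACCC beginning 93 bases before the start, and Rhd (chr4:134864286-134864535, plus strand) the GATA core AGATAA beginning 43 bases before it. Mcm5 (chr8:75109259-75109508, plus strand, a window that ends 41 bases from the annotated gene start), a subunit of the replicative helicase, has overlapping matches to the E2F forms TTTCGCGC and, on the other strand, TTTGGCGC, and Nop2 (chr6:125131633-125131882, plus strand), a nucleolar methyltransferase of ribosome assembly, the E box CACGTG.
Hbb-bs: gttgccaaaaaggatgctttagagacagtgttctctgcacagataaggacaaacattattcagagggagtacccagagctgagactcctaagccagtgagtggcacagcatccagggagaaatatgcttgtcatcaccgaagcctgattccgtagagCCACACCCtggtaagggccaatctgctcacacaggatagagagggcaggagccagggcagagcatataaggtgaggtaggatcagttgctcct
Rhd: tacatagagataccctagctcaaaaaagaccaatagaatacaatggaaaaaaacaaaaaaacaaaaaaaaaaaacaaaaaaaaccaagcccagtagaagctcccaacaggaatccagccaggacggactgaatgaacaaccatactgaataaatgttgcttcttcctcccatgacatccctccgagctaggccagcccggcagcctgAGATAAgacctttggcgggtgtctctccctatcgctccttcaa
Mcm5: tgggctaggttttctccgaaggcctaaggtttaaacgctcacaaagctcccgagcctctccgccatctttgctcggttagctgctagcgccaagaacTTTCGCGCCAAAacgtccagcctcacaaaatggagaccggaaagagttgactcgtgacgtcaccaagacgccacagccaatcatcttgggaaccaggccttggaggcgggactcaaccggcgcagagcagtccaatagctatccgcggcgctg
Nop2: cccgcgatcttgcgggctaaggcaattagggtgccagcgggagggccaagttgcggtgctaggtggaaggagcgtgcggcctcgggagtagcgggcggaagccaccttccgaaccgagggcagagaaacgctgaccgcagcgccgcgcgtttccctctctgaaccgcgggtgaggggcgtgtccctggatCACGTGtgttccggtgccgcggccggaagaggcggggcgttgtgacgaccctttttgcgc

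Promoters were found for 9680 of the tested genes. The GATA core stood in 6.42% of them, in 7 of 24 red cell membrane genes (29.2%), in 7.63% of the genes at least 2-fold higher and in 9.91% of those at least 2-fold lower. Groups that fell held it too, with 9 of 51 core histone genes (17.6%) and 11 of 69 mitochondrial ribosomal protein genes (15.9%). It stood in 3 of 17 iron genes (17.6%) and in none of 56 ribosome biogenesis genes. The E2F forms TTTGGCGC, TTTCCCGC and TTTCGCGC together stood in 3.31% of all, in 9 of 43 replication genes (20.9%), in 5 of 17 G1 and S phase genes (29.4%), in 0.754% of the genes at least 2-fold higher and in 4.22% of those at least 2-fold lower. The E box stood in 8.42% of all promoters and in 7.14% of those of ribosome biogenesis, and the CACCC box in 3.63% of all and in 1 of 7 globin promoters. These are counts of letters in a short window, not of bound sites.

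The transcription factors of the erythroid programme moved in both directions. Of 24 tested factors and cofactors, 9 were called higher and 10 lower, with a median of 0.11, and with total-count scaling 14 and 4. Over all genes 31% were called higher and 31.5% lower, so calls in both directions are not particular to this group. Gata1 lay at 202 and 203 CPM at day 0 and 212 and 223 at day 2 (0.11 ± 0.11, adjusted p = 0.40, 95% interval -0.13 to 0.34), and was called higher only with total-count scaling (0.30 at adjusted p = 0.030). Tal1 rose from 74.95 and 62.4 to 170.3 and 192 CPM (1.40 ± 0.13, adjusted p = 7.6e-06). Klf1 lay at 192 and 309 CPM at day 0 and 159.9 and 177 at day 2 (-0.57 ± 0.18, adjusted p = 0.018). Its call rests on the higher of the day 0 cultures, as the change was -0.20 (adjusted p = 0.12) without it, and the call was lost with total-count scaling and without either day 2 library too. The GATA1 cofactor Zfpm1 rose by 0.66 ± 0.11 and Klf3, a repressor of the same family as Klf1, by 0.86 ± 0.13. The falls were led by Lyl1, a relative of Tal1 (88.7 and 79.8 to 23.4 and 22.1 CPM, -1.89 ± 0.15), by Mafg (-1.24 ± 0.16) and by its partner Nfe2 (64.02 and 88.9 to 36.4 and 34.7 CPM, -1.11 ± 0.14), and the last 2 rose again after day 2 (0.63 ± 0.16 and 0.59 ± 0.14). Gata2, which GATA1 replaces in normal erythropoiesis, was low throughout, with 6.81 and 6.22 CPM at day 0 and 4.17 and 4.07 at day 2 (-0.66 ± 0.15). Of this group 12 genes were called, in place of 19, without either day 2 library.

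Progenitor and myeloid factors fell. Of 23 tested, 3 were called higher and 16 lower, with a median of -0.51. Spi1, which encodes PU.1 and whose overexpression marks this kind of leukemia, lay at 99.2 and 120.0 CPM at day 0 and 12.05 and 11.8 at day 2 (-3.20 ± 0.18, adjusted p = 4.3e-07). Id1, an inhibitor of helix-loop-helix factors, lay at 42.7 and 95.9 CPM at day 0 and 3.76 and 5.17 at day 2 (-3.95 ± 0.31). The day 0 cultures differed more than 2-fold in Id1, yet both stood over 8-fold above day 2, and without the higher of them the change was -3.26 (adjusted p = 1.16e-09). Myb, which keeps erythroid progenitors dividing, fell from 371 and 399 to 115 and 91.4 CPM (-1.90 ± 0.15, adjusted p = 3.0e-06) and by as much again to 33.5 and 25.2 CPM at day 4 (-1.82 ± 0.15). Ikzf2 (Helios) fell from 20.6 and 23.1 to 3.59 and 2.52 CPM (-2.85 ± 0.22). Runx1 (0.36 ± 0.12) and Bmi1 (0.34 ± 0.10) were among the rises, and each lost its call without replicate 1 of day 2, Runx1 also without replicate 2. Without replicate 2 of day 2, 12 genes of the group were called in place of 19.

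Signals of cytokine receptors and growth factors moved apart. Of 29 tested genes, 12 were called higher and 12 lower. The STAT5-induced feedback inhibitor Cish rose from 11.1 and 7.66 to 48.5 and 54.5 CPM (2.46 ± 0.17, adjusted p = 1.0e-06), Socs3 of the same family from 1.05 and 1.35 to 5.32 and 6.53 CPM (2.29 ± 0.23), and the kinase gene Pim2 from 7.65 and 6.77 to 18.7 and 20.9 CPM (1.46 ± 0.14). All 3 rose again by day 4. Among the falls, Spred2, an inhibitor of RAS signalling, went from 23.3 and 19.7 to 3.81 and 2.99 CPM (-2.66 ± 0.17), the MAP kinase phosphatase gene Dusp6 from 12.4 and 12.01 to 2.20 and 2.20 CPM (-2.47 ± 0.20) and Dusp5 from 4.63 and 5.16 to 1.25 and 1.77 CPM (-1.69 ± 0.23). Kit, the stem cell factor receptor, held 23 and 24 counts at day 0 and 2 in each day 2 library, which is 11.8-fold lower after scaling (95% counting interval 4.32 to 45.2).

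Immediate early and AP-1 genes were mostly lower, 12 of 20 tested against 4 higher, with a median of -0.72. Egr1 lay at 22.04 and 19.9 CPM at day 0 and 4.33 and 4.74 at day 2 (-2.20 ± 0.14, adjusted p = 5.5e-07) and recovered in part by day 4 (8.78 and 9.43 CPM, 1.004 ± 0.14). Fosl2 (-1.55 ± 0.23) and Maff (-1.97 ± 0.41) fell as well, Maff with -1.05 (adjusted p = 0.0072) without replicate 2 of day 0. Klf10 (1.68 ± 0.12), the phosphatase gene Dusp1 (1.57 ± 0.14) and Zfp36 (0.94 ± 0.21), whose product speeds the decay of AU-rich mRNAs, were the leading rises, and all 3 were called higher again after day 2.

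In the MYC network the antagonists moved and Myc itself did not pass the test. Myc lay at 147 and 199 CPM at day 0 and 144 and 140.1 at day 2 (-0.29 ± 0.16, adjusted p = 0.15), was called lower without replicate 1 of day 0 (-0.49 at adjusted p = 0.0058), and fell over the following step to 91.8 and 67.7 CPM (-0.83 ± 0.17, adjusted p = 0.0042). Mxd4, a MAX partner that opposes MYC, rose from 11.8 and 11.5 to 67.7 and 77.6 CPM (2.64 ± 0.11, adjusted p = 8.4e-08) and Mxd1 from 11.9 and 12.5 to 28.2 and 33.7 CPM (1.35 ± 0.13). Mxd3 rose by 0.91 ± 0.16 and then returned (-0.94 ± 0.16). Max (-0.61 ± 0.11) and Mlx (-0.54 ± 0.12) were lower. Of the 10 tested genes, 4 were called higher and 2 lower.

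**Figure D3:**
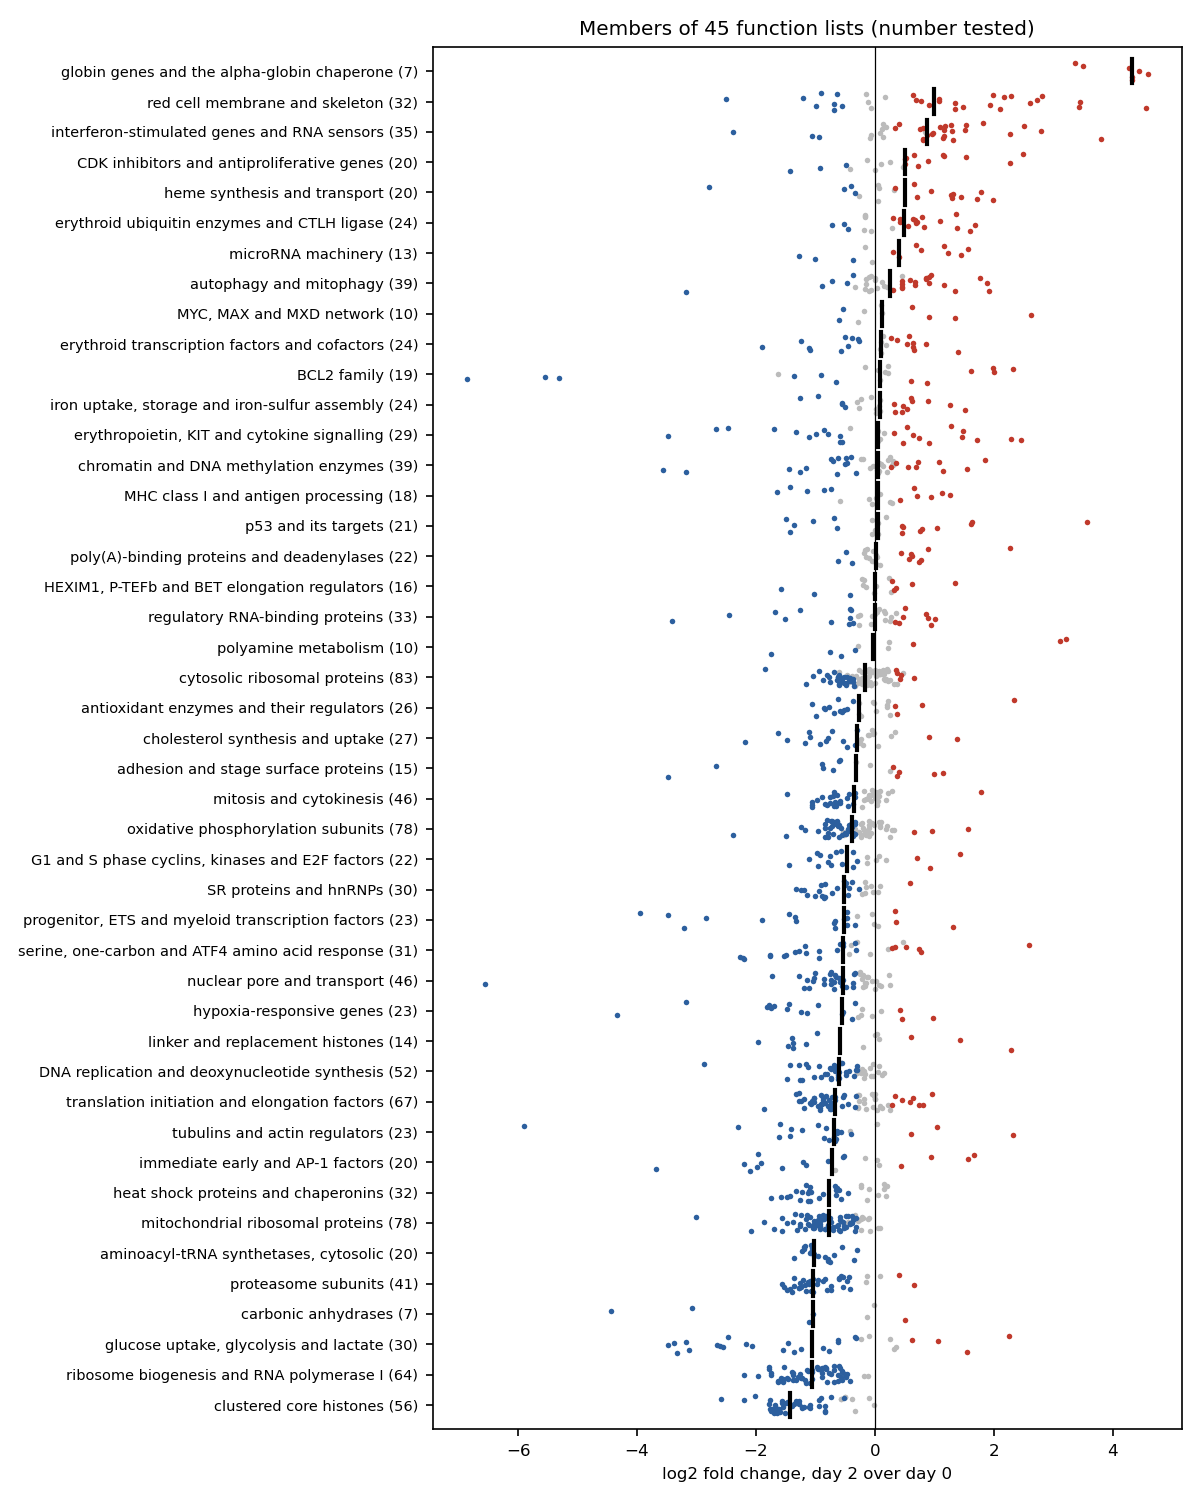
Log2 fold change of day 2 over day 0 (horizontal axis) of every tested member of 45 function lists (rows, with the number tested), ordered by median. Each point is a gene, red where called higher, blue where called lower and grey where not called, and the black bar is the median, which ran from 4.33 for globin genes to -1.42 for clustered core histones.

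Antiproliferative genes rose while the machinery of the cell cycle began to fall. Of 20 tested CDK inhibitors and antiproliferative genes, 11 were called higher and 3 lower, with a median of 0.51. Pdcd4, a translation inhibitor, lay at 42.9 and 48.1 CPM at day 0 and 261 and 250.4 at day 2 (2.49 ± 0.11, adjusted p = 1.0e-07) and was complete by day 2. Btg2 went from 9.34 and 11.8 to 47.5 and 55.3 CPM (2.28 ± 0.13, adjusted p = 3.8e-07), and Gadd45g from 7.79 and 11.4 to 25.98 and 29.8 CPM (1.54 ± 0.17). The genes of p21, p16 and p27 were not called higher. Cdkn1a (p21) was lower, with 21.2 and 33.1 CPM at day 0 and 9.34 and 10.9 at day 2 (-1.42 ± 0.21, adjusted p = 1.5e-04), and Cdkn2a, which encodes p16 and p19ARF, fell from 124 and 129.9 to 64.8 and 69.7 CPM (-0.92 ± 0.10). Cdkn1b (p27) lay at 32.5 and 47.4 CPM at day 0 and 40.8 and 39.1 at day 2 (0.00 ± 0.16, adjusted p = 0.99), and was called higher, by 0.29 (adjusted p = 0.041), when replicate 2 of day 0 was left out. Cdkn2d was called lower (-0.48 ± 0.18), a call lost under several alternatives.

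Among the cyclins, kinases and E2F factors of G1 and S phase, 14 of 22 were called lower and 3 higher, with a median of -0.47. Ccne1, which encodes cyclin E1, fell from 69.1 and 69.8 to 26.2 and 24.8 CPM (-1.45 ± 0.11, adjusted p = 1.8e-06), E2f4 from 244 and 264 to 113 and 123 CPM (-1.10 ± 0.11), and the ubiquitin ligase gene Skp2, which targets p27, from 89.5 and 99.5 to 49.3 and 46.6 CPM (-0.98 ± 0.12). The first 2 of these were complete by day 2. Cdk6 fell from 59.98 and 60.8 to 37.05 and 35.7 CPM (-0.73 ± 0.10, adjusted p = 1.2e-04) and did not pass the test after that (-0.09 ± 0.10). The rises were Ccnd2 (cyclin D2, 180.5 and 183 to 348 and 342 CPM, 0.93 ± 0.11), the E2F partner Tfdp2 (1.43 ± 0.11) and E2f5 (0.71 ± 0.17).

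The genes of DNA replication and deoxynucleotide synthesis had made part of their fall. Of 52 tested, 36 were called lower and none higher, with a median of -0.61 and 2 called higher with total-count scaling. Mcm5 lay at 664 and 624 CPM at day 0 and 224 and 240.0 at day 2 (-1.47 ± 0.12, adjusted p = 3.8e-06). Rrm2, a subunit of ribonucleotide reductase, fell from 131 and 122 to 49.7 and 44.7 CPM (-1.42 ± 0.11, adjusted p = 2.8e-06), and Tk1, thymidine kinase, from 27.7 and 49.6 to 5.51 and 5.09 CPM (-2.87 ± 0.23). From day 2 to day 4, where 30.3% of all genes were called, 49 of the 52 were called lower and none higher, with a median of -0.74. All 9 genes that had fallen at least 2-fold by day 2 fell further.

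Genes of mitosis fell over both steps. Of 46 tested, 25 were called lower and 1 higher by day 2, with a median of -0.35 (19 and 4 with total-count scaling), and 41 were called lower and none higher over the following step, with a median of -0.79. Mybl2, a transcription factor of late cell cycle genes, fell from 162 and 172 to 60.4 and 59.1 CPM (-1.48 ± 0.10, adjusted p = 8.9e-07), Plk1, a mitotic kinase, from 86.6 and 87.1 to 37.5 and 45.5 CPM (-1.06 ± 0.12), and the checkpoint kinase gene Bub1b from 278 and 299 to 134 and 143 CPM (-1.06 ± 0.12). The exception was Cdc25b, a phosphatase that activates CDKs, which rose from 41.4 and 33.2 to 119 and 138 CPM (1.79 ± 0.13, adjusted p = 1.6e-06).

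Clustered core histone genes had the lowest median of the 45 function lists (-1.42). Of 56 tested, 48 were called lower and none higher, 40 of them at least 2-fold. H4c14 fell from 9.90 and 9.87 to 1.60 and 1.67 CPM (-2.59 ± 0.17, adjusted p = 7.0e-07) and then to 0.526 and 0.486 CPM. Most replication-dependent histone mRNAs carry no poly(A) tail, so these poly(A)-selected libraries hold only the part that was captured, and the summed level of the group was 811 and 842 CPM at day 0 and 321 and 297 at day 2. H3c8 rested in part on replicate 2 of day 0 (-2.20 ± 0.35, and -1.47 at adjusted p = 2.86e-04 without it), and H2bc9 turned upward after day 2 (-1.79 ± 0.23, then 0.83 ± 0.25). Among 14 linker and replacement histone genes, 3 were called higher and 7 lower. H1f0, the linker histone of cells that stop dividing, rose from 53.4 and 56.5 to 260.0 and 279 CPM (2.29 ± 0.11, adjusted p = 1.8e-07) and was complete by day 2, with 243 and 277 CPM at day 4. H2az2 rose from 39.8 and 41.7 to 110.1 and 109 CPM (1.43 ± 0.10), whereas H2az1, which encodes a nearly identical variant, lay at 359 and 749 CPM at day 0 and 146 and 138 at day 2 (-1.97 ± 0.25, and -1.35 at adjusted p = 4.84e-08 without replicate 2 of day 0). H3f3a was higher (0.60 ± 0.13) and H2aj lower (-1.38 ± 0.15). The call of H1f3 (-1.46 ± 0.41) was lost without replicate 2 of day 0, where the change was -0.29 (adjusted p = 0.21) against -2.09 without replicate 1, and without either day 2 library.

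The genes that build ribosomes fell almost as a whole. Of 64 genes of ribosome biogenesis and RNA polymerase I, 62 were called lower and none higher, with a median of -1.06 and 34 falls of at least 2-fold. Utp20, of the small subunit processome, lay at 154 and 164 CPM at day 0 and 49.3 and 42.9 at day 2 (-1.79 ± 0.11, adjusted p = 4.9e-07). Nolc1, a nucleolar chaperone, fell from 394 and 788 to 131 and 127 CPM (-2.19 ± 0.24, adjusted p = 2.7e-05), and Tcof1, a factor for ribosomal DNA transcription, from 169 and 281 to 55.5 and 59.8 CPM (-1.96 ± 0.19). Both day 0 cultures stood above both day 2 cultures in each, although the day 0 replicates of Nolc1 lay 2-fold apart.

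The ribosomal protein genes themselves are a separate group. Of 83 tested, 27 were called lower and 5 higher, and the median of -0.16 turned to 0.04 with total-count scaling, where 15 were called in each direction. The count also depended on single libraries. It was 50 without replicate 1 of day 0 and 12 without either day 2 library. The 3 largest falls rested on replicate 2 of day 0, as in Rpsa with 138 and 743 CPM at day 0 and 109 and 136 at day 2, whose change of -1.85 ± 0.51 became -0.18 (adjusted p = 0.21) without it and -2.60 without the other day 0 culture. Rpl14 changed from -1.16 to -0.27 (adjusted p = 0.025) and Rplp1 from -1.05 to -0.18 (adjusted p = 0.16) in the same way, and all 3 calls were lost without either day 2 library. Rpl39 (0.66 ± 0.12), Rps12 (0.44 ± 0.13) and Rpl36a (0.42 ± 0.14) were the leading rises, the last 2 lost without either day 2 library. Many ribosomal protein genes have processed pseudogenes that can take their reads.

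Other parts of the protein synthesis apparatus fell with ribosome biogenesis. All 20 cytosolic aminoacyl-tRNA synthetases were called lower, with a median of -1.02 and changes from -1.36 to -0.30. Farsa went from 153 and 187 to 65.7 and 67.01 CPM (-1.36 ± 0.12, adjusted p = 4.6e-06), Nars from 481 and 482 to 217 and 197 CPM (-1.22 ± 0.15) and Rars from 297 and 287 to 138 and 118 CPM (-1.19 ± 0.13). Of 67 translation factors, 40 were called lower and 8 higher, with a median of -0.66. Eif5a, which helps ribosomes past difficult peptide bonds, fell from 954 and 933 to 363 and 386 CPM (-1.33 ± 0.12, adjusted p = 5.4e-06), Eif3d from 494 and 439.5 to 190.2 and 196 CPM (-1.27 ± 0.11) and Eif6 from 105 and 139 to 50.2 and 50.9 CPM (-1.27 ± 0.13). Among the rises were the heme-regulated Eif2ak1 (50.96 and 43.1 to 77.5 and 80.5 CPM, 0.75 ± 0.12) and the RNA-activated Eif2ak2 (35 and 36.8 to 65.3 and 60.5 CPM, 0.81 ± 0.10). These genes encode some of the kinases that inhibit initiation through eIF2. Eif5a2 (0.96 ± 0.12), the paralog of Eif5a, was higher too.

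Chaperones and the proteasome were lower as well. Of 32 heat shock proteins and chaperonins, 23 were called lower and none higher (2 higher with total-count scaling), with a median of -0.76. Hsp90ab1 fell from 2870.4 and 4262 to 1073 and 1057 CPM (-1.74 ± 0.18, adjusted p = 1.4e-05), the endoplasmic reticulum form Hsp90b1 from 1062 and 1328 to 412 and 391 CPM (-1.57 ± 0.14) and the mitochondrial chaperonin gene Hspd1 from 591 and 595 to 225 and 199 CPM (-1.48 ± 0.12). Of 41 proteasome subunits, 36 were called lower and 2 higher, with a median of -1.04. Psmc4, an ATPase of the regulatory particle, lay at 301 and 246 CPM at day 0 and 90.2 and 94.5 at day 2 (-1.57 ± 0.13, adjusted p = 3.6e-06). Psmb5, the chymotrypsin-like subunit, fell from 83.02 and 114 to 34.2 and 34.1 CPM (-1.53 ± 0.14), and Psma5 from 38.4 and 28.99 to 12.96 and 11.3 CPM (-1.47 ± 0.15). The falls of the proteasome genes were mostly over by day 2, since 19 of the 21 falls of at least 2-fold were complete. Psme4 (0.41 ± 0.11), an alternative activator, and the immunoproteasome gene Psmb9 (0.66 ± 0.25) were the rises. Psmb9 lost its call in DESeq2 and without replicate 2 of day 0 or either day 2 library, and Psme4 without replicate 1 of day 2.

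Degradation systems that serve red cell maturation moved the other way. Of 24 genes of erythroid ubiquitin enzymes and the CTLH ligase, 15 were called higher and 3 lower, with a median of 0.49. Rmnd5a, a catalytic subunit of the CTLH complex, rose from 69.4 and 69.5 to 227 and 221 CPM (1.69 ± 0.11, adjusted p = 5.6e-07) and was complete. Ube2h, its ubiquitin-conjugating partner, rose from 11.03 and 10.4 to 31.4 and 33.2 CPM (1.60 ± 0.12, adjusted p = 1.5e-06) and continued to 54.5 and 60.3 CPM. Trim10, an erythroid RING protein gene, rose from 18.8 and 21.98 to 50.5 and 56.1 CPM (1.39 ± 0.12). Maea (-0.72 ± 0.13), which pairs with Rmnd5a in the complex, was lower, and so were Rmnd5b (-0.51 ± 0.12) and Ube2e3 (-0.45 ± 0.11), of which Rmnd5b lost its call without replicate 1 of day 2 and Ube2e3 without replicate 2 of day 2 and with total-count scaling. Of 39 autophagy genes, 18 were called higher and 5 lower (23 and 3 with total-count scaling), with a median of 0.26. Ulk2, a kinase that starts autophagy, rose from 11.8 and 10.6 to 43.2 and 42.2 CPM (1.93 ± 0.12, adjusted p = 5.4e-07), Map1lc3a (LC3A) from 3.24 and 2.34 to 9.51 and 10.9 CPM (1.89 ± 0.18) and Wipi1 from 5.20 and 4.77 to 17.5 and 16.7 CPM (1.78 ± 0.13). Sqstm1 (the autophagy receptor p62) fell (-0.72 ± 0.11) and rose again (0.77 ± 0.11). Bnip3, a mitophagy receptor that responds to hypoxia, lay at 39.6 and 157 CPM at day 0 and 11.2 and 10.6 at day 2 (-3.18 ± 0.44). Its day 0 cultures differed nearly 4-fold, both lay above day 2, and the change was -1.87 (adjusted p = 1.62e-08) without the higher one and -3.85 without the lower. Atg10 was lower (-0.89 ± 0.23), a call lost without replicate 2 of day 2.

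Glycolysis had fallen deeply by day 2. Of 30 tested genes of glucose uptake, glycolysis and lactate, 21 were called lower and 4 higher, with a median of -1.05, and the summed level of the group was 7597 and 8343 CPM at day 0 and 2132 and 2135 at day 2. Slc2a1, the glucose transporter GLUT1, lay at 103 and 104 CPM at day 0 and 9.27 and 11.5 at day 2 (-3.32 ± 0.13, adjusted p = 8.4e-08). Pgam1, phosphoglycerate mutase, went from 208 and 196 to 18.5 and 17.8 CPM (-3.48 ± 0.11, adjusted p = 4.0e-08), and Pkm, pyruvate kinase, from 1489 and 1941 to 157 and 172 CPM (-3.38 ± 0.16, adjusted p = 1.6e-07). No day 0 culture came within 8-fold of a day 2 culture in these 3 genes. None of the 3 was called for the later step (-0.17 ± 0.14, -0.17 ± 0.11 and 0.24 ± 0.16). Of the 15 falls of at least 2-fold in the group, 9 were complete and 4 continued. The 4 rises were those of Pdk2, Bpgm, Pfkfb2 and Slc2a4. Pdk2, a kinase that holds pyruvate out of the citric acid cycle, rose from 4.95 and 4.98 to 24.9 and 22.6 CPM (2.26 ± 0.13), Bpgm, which makes the 2,3-bisphosphoglycerate of red cells, from 12.9 and 11.2 to 23.4 and 27.2 CPM (1.07 ± 0.13), and Pfkfb2 by 0.63 ± 0.12. Slc2a4, the glucose transporter GLUT4, was low in all 4 libraries (0.392 and 0.242 CPM at day 0, 0.694 and 1.12 at day 2, 1.55 ± 0.50), and lost its call without replicate 2 of day 0 or of day 2.

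Hypoxia-responsive genes, some of which are also in the glycolysis and autophagy groups, were lower in 15 of 23 and higher in 3, with a median of -0.55. Ankrd37 went from 17.1 and 32.9 to 1.20 and 1.28 CPM (-4.33 ± 0.35, adjusted p = 2.4e-06), and Ero1a, an oxidase for disulfide bonds, from 211 and 268 to 70.5 and 66.1 CPM (-1.81 ± 0.13, adjusted p = 1.3e-06). Vhl, which marks HIF for degradation, was higher at 17.5 and 15.8 CPM against 31.7 and 34.1 (0.98 ± 0.12), as were the HIF partner Arnt (0.47 ± 0.11) and Kdm4b (0.42 ± 0.11, call lost without replicate 2 of day 2).

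Mitochondrial genes fell, with a lower median for the ribosome of the organelle than for the respiratory chain. Of 78 mitochondrial ribosomal proteins, 65 were called lower and none higher, with a median of -0.77. Mrpl12 fell from 239 and 362 to 73.8 and 68.2 CPM (-2.08 ± 0.17, adjusted p = 3.7e-06), Mrpl54 from 97.3 and 72.7 to 24.1 and 22.8 CPM (-1.86 ± 0.15), and Mrps28 from 35.5 and 68.7 to 6.47 and 6.53 CPM (-3.004 ± 0.25). Of the 25 falls of at least 2-fold, 16 were complete by day 2. Of 78 genes for subunits of oxidative phosphorylation, 42 were called lower and 3 higher (25 and 8 with total-count scaling), with a median of -0.38, and 27 in all were called without replicate 2 of day 2. Atp5g1, of the ATP synthase, fell from 30.1 and 34.5 to 11.6 and 11.4 CPM (-1.49 ± 0.12, adjusted p = 3.4e-06) and Ndufb6 from 43.4 and 88.5 to 26.5 and 29.2 CPM (-1.24 ± 0.25, and -0.65 at adjusted p = 4.28e-04 without replicate 2 of day 0). Atp5k, with 47.4 and 396 CPM at day 0 and 39.9 and 45.5 at day 2, owed its change of -2.38 ± 0.62 to 1 culture, as it was -0.16 (adjusted p = 0.23) without it and -3.22 without the other, and the call was lost without either day 2 library as well. Ndufa4l2 (low, with 0.441 and 0.443 CPM at day 0 and 1.20 and 1.42 at day 2, 1.57 ± 0.33), Ndufa1 (0.97 ± 0.18) and Cox7a2l (0.65 ± 0.11) were higher, and the first of them fell back afterwards (-1.26 ± 0.32). The difference between the 2 groups was not tested.

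Of 31 genes of serine synthesis, one-carbon metabolism and the ATF4 response, 19 were called lower and 6 higher. Phgdh, the first enzyme of serine synthesis, fell from 274 and 374 to 67.3 and 73.7 CPM (-2.20 ± 0.17, adjusted p = 2.7e-06), the last enzyme gene Psph from 72.97 and 113 to 21.1 and 19.1 CPM (-2.21 ± 0.18) and Shmt1 from 104 and 89.5 to 20.95 and 19.5 CPM (-2.26 ± 0.17). They had further to go: 10 of the 11 falls of at least 2-fold in the group were called lower again, and Phgdh reached 32.6 and 23.5 CPM. The arginine transporter gene Slc7a3 rose from 0.686 and 0.504 to 3.88 and 3.28 CPM (2.59 ± 0.25), and Atf5 rose by 0.78 ± 0.30, a call lost in DESeq2 and without replicate 2 of day 0 or either day 2 library. Cholesterol genes fell, and some rose again. Of 27 tested, 14 were called lower and 2 higher by day 2 (11 and 4 with total-count scaling). Over the following step 7 were called higher and none lower (3 lower at an unadjusted p under 0.05). Over all genes 30.3% were called for that step, both directions together. Lss, lanosterol synthase, fell from 62.9 and 50.9 to 20.02 and 20.8 CPM and rose to 28.95 and 24.9 (-1.48 ± 0.13, then 0.40 ± 0.14). Fdps fell from 48.8 and 71.5 to 13.5 and 13.2 CPM (-2.18 ± 0.17) and did not pass the test afterwards (0.26 ± 0.17). Tm7sf2 (1.38 ± 0.20) and Hsd17b7 (0.92 ± 0.16) were higher at day 2.

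Of 10 polyamine genes, 3 were called higher and 4 lower, near the shares over all genes, with a median of -0.03, which turned to 0.17 with total-count scaling (5 higher and 3 lower). Smox, spermine oxidase, rose from 5.78 and 5.92 to 48.8 and 60.4 CPM (3.22 ± 0.14, adjusted p = 8.4e-08), and Azin2, which protects the first enzyme of the pathway, from 0.613 and 0.685 to 5.32 and 6.06 CPM (3.12 ± 0.23). Oaz2, an antizyme, rose by 0.65 ± 0.12. Among the synthetic enzymes, the falls included Srm (spermidine synthase), from 322 and 282 to 91.05 and 89.4 CPM (-1.74 ± 0.15, adjusted p = 5.0e-06), Sms (-0.75 ± 0.11) and Odc1 (-0.57 ± 0.13), the last call lost without replicate 1 of day 2. Of 26 antioxidant genes, 4 were called higher and 12 lower (8 and 9 with total-count scaling), with a median of -0.27. Gsr, glutathione reductase, fell from 39.02 and 35.7 to 18.8 and 17.2 CPM (-1.05 ± 0.12), Prdx1 from 114 and 118 to 58.5 and 58.97 CPM (-0.98 ± 0.11) and Txn2 (-0.86 ± 0.11), whereas Gss, glutathione synthetase, rose by 0.79 ± 0.12. The rises of Prdx4 (0.38 ± 0.13) and Gclc (0.34 ± 0.11) lost their calls without replicate 2 of day 0 or either day 2 library.

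Of 19 BCL2 family genes, 6 were called higher and 6 lower (10 and 6 with total-count scaling), which is close to the 31% and 31.5% of all genes. The rises were led by BH3-only genes, whose products promote apoptosis: Bcl2l11 (BIM) from 10.1 and 11.1 to 39.2 and 45.7 CPM (2.003 ± 0.14, adjusted p = 1.0e-06), Bmf from 1.59 and 1.29 to 7.02 and 7.41 CPM (2.33 ± 0.21) and Bik from 2.62 and 2.48 to 9.60 and 10.5 CPM (1.98 ± 0.16). The largest falls were those of Bcl2a1a, Bcl2a1b and Bcl2a1d, paralogs of 1 antiapoptotic family whose reads may have been shared. Bcl2a1a held 121 and 140 counts at day 0 and 1 in each day 2 library, a ratio of 131 (95% counting interval 35.96 to 1089). Bcl2a1b went from 3.63 and 3.63 to 0.144 and 0.0407 CPM (-5.31 ± 0.55, between -6.38 and -4.63 with 1 day 2 culture left out) and Bcl2a1d from 3.24 and 3.18 to 0.0958 and 0.0407 CPM (-5.54 ± 0.57, and -6.20 without replicate 1 of day 2). The effectors Bax (76.8 and 115 to 35.8 and 39.2 CPM, -1.36 ± 0.16) and Bak1 (89.1 and 92.2 to 47.7 and 49.3 CPM, -0.90 ± 0.10) fell. Bcl2l1, whose BCL-XL form keeps late erythroblasts alive, fell from 14.1 and 14.9 to 9.34 and 9.12 CPM (-0.65 ± 0.13, adjusted p = 0.0014) and rose afterwards to 15.7 and 18.2 CPM (0.88 ± 0.13). Of 21 genes of p53 and its targets, 9 were called higher and 6 lower. Trp53inp1 rose from 1.94 and 1.67 to 23.2 and 19.8 CPM (3.58 ± 0.16, adjusted p = 8.4e-08), Bbc3 (PUMA) from 5.64 and 4.86 to 16.1 and 16.1 CPM (1.62 ± 0.13) and Zmat3 by 1.04 ± 0.12, while Aen fell (-1.48 ± 0.13).

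Interferon-stimulated genes were mostly higher in these cultures, which received no interferon by the protocol. Of 35 tested, 24 were called higher and 3 lower, with a median of 0.88, and 15 rises reached 2-fold. Irf7, a factor of the interferon response, lay at 0.760 and 0.584 CPM at day 0 and 8.17 and 10.6 at day 2 (3.81 ± 0.35, adjusted p = 3.4e-06). Xaf1 went from 0.637 and 0.947 to 4.00 and 5.15 CPM (2.51 ± 0.26) and Oas1b, of the 2-5A synthetase family, from 1.18 and 1.17 to 5.36 and 5.96 CPM (2.27 ± 0.23). The group did not rise as 1 unit. Oasl1 fell from 72.4 and 60.2 to 12.5 and 12.9 CPM (-2.39 ± 0.13, adjusted p = 2.3e-07), Ifit2 from 8.26 and 8.64 to 4.26 and 3.87 CPM (-1.06 ± 0.16), and Isg20 (-0.94 ± 0.11). Summed over the list, the level was 577 and 557 CPM at day 0 and 725 and 774 at day 2. Genes of MHC class I and antigen processing were mixed, with 6 of 18 called higher and 5 lower. Tapbp (tapasin) rose from 37.4 and 53.5 to 97.2 and 121 CPM (1.26 ± 0.17), Erap1 by 1.13 ± 0.11 and Tap1 by 0.94 ± 0.13, and the endoplasmic reticulum chaperone genes Calr (1819 and 2157 to 601 and 676 CPM, -1.64 ± 0.14) and Pdia3 (-1.13 ± 0.11) fell, with Psmb10 (-1.42 ± 0.12).

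SR proteins and hnRNPs were lower in 21 of 30 and higher in 1, with a median of -0.51. Hnrnpm fell from 557 and 776 to 255 and 277 CPM (-1.32 ± 0.15, adjusted p = 3.1e-05), Hnrnpl (-1.18 ± 0.16) and Hnrnpll (-1.24 ± 0.23), and the rise was Srsf5, from 90.7 and 92.4 to 136 and 140.1 CPM (0.59 ± 0.11). Of 33 other regulatory RNA-binding proteins, 8 were called higher and 11 lower (14 and 6 with total-count scaling). The splicing regulator Ptbp1 fell from 435 and 499 to 163 and 166 CPM (-1.50 ± 0.12, adjusted p = 3.2e-06) as its paralog Ptbp2, which PTBP1 represses in other cells, rose from 10.6 and 10.98 to 22.7 and 20.98 CPM (1.01 ± 0.12, adjusted p = 3.1e-05). Celf2 fell from 76.9 and 76.4 to 14.9 and 12.9 CPM (-2.46 ± 0.12), the stress granule gene G3bp1 (-1.26 ± 0.11), and Rbfox2 rose by 0.89 ± 0.14. Of 13 genes of microRNA machinery, 8 were called higher and 3 lower. The Argonaute genes Ago4 (7.87 and 7.13 to 22.5 and 21.96 CPM, 1.57 ± 0.12) and Ago1 (35.98 and 28.5 to 73.04 and 78.04 CPM, 1.23 ± 0.13) and the Dicer partner Prkra (1.44 ± 0.12) rose and were complete, whereas Prkra's relative Tarbp2 (39.2 and 41.8 to 15.9 and 17.5 CPM, -1.28 ± 0.12), the exporter Xpo5 (-1.01 ± 0.12) and Dgcr8 (-0.37 ± 0.11, a call lost with total-count scaling and without replicate 2 of day 2) fell. Among 22 poly(A)-binding proteins and deadenylases, 8 were called higher and 3 lower. Tob1 (0.90 ± 0.13) and Pan3 (0.78 ± 0.10) rose, and Pan2 (-0.62 ± 0.13), its catalytic partner, Cnot9 (-0.49 ± 0.10) and Pabpn1 (-0.39 ± 0.11) fell, Pabpn1 losing its call with total-count scaling (-0.19 at adjusted p = 0.15) and without replicate 2 of day 2.

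Among 16 regulators of transcription elongation around HEXIM1 and P-TEFb, 5 were called higher and 3 lower, a total of 8 that fell to 5 without replicate 1 of day 2 and to 4 without replicate 2 (7 higher and 2 lower with total-count scaling). Hexim1, which holds P-TEFb inactive, lay at 36.5 and 49.3 CPM at day 0 and 29.7 and 34.3 at day 2 (-0.42 ± 0.15, adjusted p = 0.029). That call was lost without replicate 2 of day 0 (-0.20 at adjusted p = 0.17), with total-count scaling and without either day 2 library. Larp7, of the same complex, fell from 67.2 and 86.5 to 27.5 and 23.9 CPM (-1.58 ± 0.14, adjusted p = 4.5e-06) and Hexim2 (-1.02 ± 0.22). The elongation factor gene Ell2 rose from 39.5 and 37.8 to 102 and 94.9 CPM (1.35 ± 0.10, adjusted p = 2.1e-06), Ell by 0.62 ± 0.12 and Mepce by 0.37 ± 0.11, the last call lost without replicate 2 of day 2. Of 39 chromatin and DNA methylation enzymes, 9 were called higher and 14 lower (16 and 9 with total-count scaling). In the Polycomb methyltransferase, Ezh1 rose from 12.8 and 11.4 to 32.5 and 38.3 CPM (1.55 ± 0.14) and its partner Eed fell from 49.4 and 44.7 to 22.2 and 19.9 CPM (-1.16 ± 0.13). Hdac11 (1.86 ± 0.16) rose, and Mbd3 (-1.44 ± 0.11) and Uhrf1 (-1.25 ± 0.14), which guides maintenance methylation, fell.

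Genes of the cytoskeleton and of nuclear traffic were mostly lower. Of 23 tubulin and actin regulator genes, 18 were called lower and 3 higher, with a median of -0.69. Capg, an actin-capping protein gene, fell from 149 and 206 to 35.6 and 36.2 CPM (-2.31 ± 0.14, adjusted p = 5.6e-07) and Tuba8 (-1.62 ± 0.22), while Tubb3 (0.956 and 0.907 to 4.26 and 5.07 CPM, 2.33 ± 0.21), Tmsb10 (1.05 ± 0.14) and Tubb4a (0.61 ± 0.18, call lost without replicate 2 of day 2) rose. Of 46 nuclear pore and transport genes, 29 were called lower and none higher (2 at an unadjusted p under 0.05, and 3 called with total-count scaling), with a median of -0.54. The GTPase gene Ran fell from 371 and 364 to 108 and 112 CPM (-1.73 ± 0.11, adjusted p = 5.4e-07), its exchange factor Rcc1 from 113 and 106 to 44.4 and 46.4 CPM (-1.27 ± 0.11) and the importin gene Ipo5 from 550.5 and 494 to 242 and 215 CPM (-1.19 ± 0.12). Among 15 adhesion and stage surface genes, 5 were called higher and 7 lower. The tetraspanin Cd81 rose from 87.7 and 56.2 to 163 and 157 CPM (1.15 ± 0.18), with Cd9 (0.99 ± 0.16) and Cd82 (0.41 ± 0.13, call lost without replicate 2 of day 0 or either day 2 library), and Cd48 (-0.88 ± 0.13) and the fibronectin receptor chains Itga5 (-0.86 ± 0.11) and Itga4 (-0.71 ± 0.12) fell. The carbonic anhydrases of the red cell went apart, as Car2 rose from 184 and 182 to 263 and 258 CPM (0.51 ± 0.10, adjusted p = 0.0015) and Car1 fell from 463 and 390.0 to 241 and 156 CPM (-1.11 ± 0.19, adjusted p = 4.9e-04) and then to 27.3 and 21.7 CPM, with 1 of the 7 tested family members called higher and 4 lower. Of 7 tested megakaryocyte markers, summed over the list to between 228 and 278 CPM in the 4 libraries (most of it Itga2b, which erythroid progenitors share), Vwf (1.18 and 0.826 to 10.4 and 11.4 CPM, 3.46 ± 0.21) and Gp1ba (1.91 ± 0.25) were called higher and Pf4 (57.4 and 42.6 to 14.2 and 12.9 CPM, -1.89 ± 0.15) and Ppbp lower.

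Which of these changes were already complete was asked of the 2867 genes changed at least 2-fold by day 2. A change was taken as complete when the step from day 2 to day 4 was not called and its 95% interval lay within 1.5-fold in either direction, as continuing when that step was called in the same direction, and as returning when it was called in the opposite one. All others were left undetermined. Both steps use the day 2 libraries, so an error in them that enlarges the first step enters the second with the opposite sign. Of the 1388 rises, 349 were complete, 452 continued, 90 returned and 497 were undetermined. Of the 1479 falls, 326 were complete, 470 continued, 50 returned and 633 were undetermined. The median later step of the complete changes was 0.09 for rises and -0.08 for falls, against 0.74 and -0.91 for those that continued. These numbers depend on the precision of the later step. With a margin of 2-fold in place of 1.5-fold 1174 genes were complete instead of 675, and leaving out 1 library gave between 402 and 805.

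**Figure D4:**
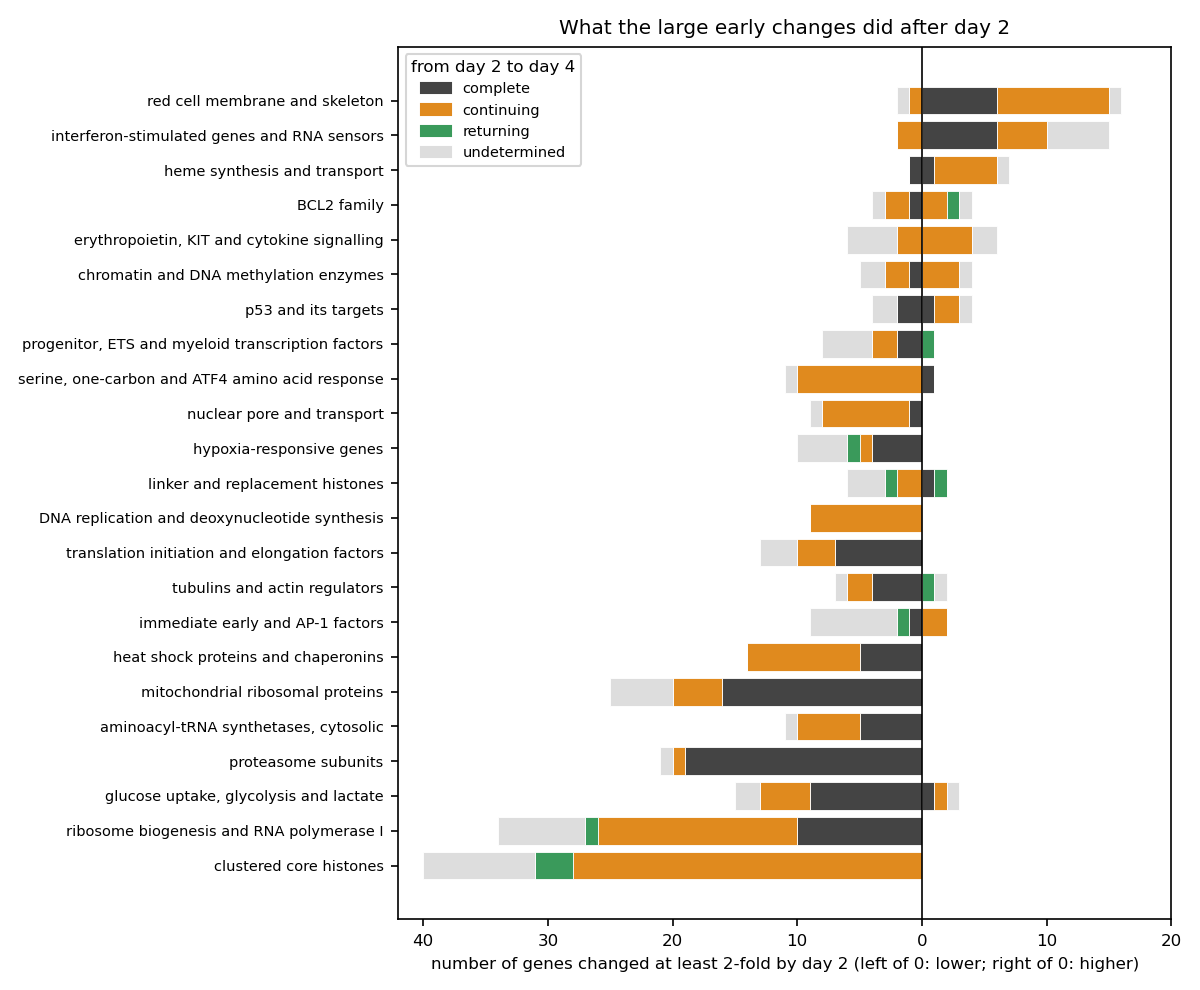
Number of genes changed at least 2-fold by day 2 (horizontal axis, falls to the left of 0 and rises to the right) in the function lists with 8 or more such genes (rows, ordered by median change), coloured by what they did from day 2 to day 4. In the proteasome list 19 of 21 falls were complete, in the replication list all 9 continued, and in the red cell membrane list 6 of 16 rises were complete and 9 continued.

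Complete rises of well expressed genes were led by Rhd, followed by Arsg, a lysosomal sulfatase gene, which lay at 2.03 and 2.20 CPM at day 0, 20.6 and 21.4 at day 2 and 24.8 and 23.6 at day 4 (3.31 ± 0.14, then 0.21 ± 0.12). Tns2 (tensin 2, 3.04 ± 0.18), N4bp2l1 (2.88 ± 0.17) and Drp2 (2.86 ± 0.13) were the next. Complete falls were led by Pgam1 and Slc2a1, then Rufy4 (109 and 139, 13.8 and 15.2 and 14.1 and 13.1 CPM at days 0, 2 and 4), the scaffold gene Shank3 (-2.80 ± 0.12) and Scd2, a fatty acid desaturase gene that went from 1175 and 1057 to 165 and 156 CPM and stood at 158 and 199 CPM at day 4 (-2.80 ± 0.14, then 0.15 ± 0.14). In none of these 10 genes did a day 2 culture differ from a day 4 culture by as much as 1.5-fold. By group, complete changes made up 19 of 21 large falls of proteasome subunits, 16 of 25 of mitochondrial ribosomal proteins, 9 of 15 of glycolysis and 10 of 34 of ribosome biogenesis, and none of 7 globin rises, none of 9 replication falls and none of 40 core histone falls. These shares are not tested against each other.

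Genes that continued included all the globin genes and, among genes with an average of at least 3 log2 CPM, Matk, a tyrosine kinase gene, with 0.294 and 0.222 CPM at day 0, 5.89 and 7.29 at day 2 and 17.5 and 18.2 at day 4 (4.68 ± 0.30, then 1.44 ± 0.15). Siglecf fell from 92.1 and 76.96 CPM to 3.83 and 2.56 and then to 1.72 and 1.13 (-4.73 ± 0.20, then -1.18 ± 0.25). Vim, Anxa2, Hdc and Myb, described above, fell further as well.

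Genes that returned peaked or dipped at day 2. Hebp1, a heme-binding protein gene, lay at 17.1 and 14.9 CPM at day 0, 90.9 and 84.1 at day 2 and 49.6 and 47.9 at day 4 (2.45 ± 0.11, then -0.84 ± 0.11). Cacna1c went from 2.18 and 2.80 CPM to 17.98 and 18.4 and back to 10.97 and 7.42 (2.86 ± 0.20, then -0.99 ± 0.18), and Reps2 (2.15 ± 0.13, then -0.51 ± 0.13), the mTOR inhibitor gene Deptor (1.92 ± 0.19, then -0.81 ± 0.19) and Glcci1 (1.80 ± 0.11, then -0.34 ± 0.11) followed the same course. None of these 5 had returned to its day 0 level, since every day 4 culture lay above both day 0 cultures. Among the dips, Plek (pleckstrin) went from 283 and 326 CPM to 58.3 and 49.04 and then to 93.6 and 82.99 (-2.51 ± 0.13, then 0.72 ± 0.13), with Cited2 (-1.52 ± 0.14, then 0.45 ± 0.15) beside Egr1 and Lss. In these 4 genes every day 4 culture lay below both day 0 cultures.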

How the data were processed

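RNA of MEL cells sampled at 0, 2 and 4 days of 2% DMSO (2 cultures a day) was extracted with TRIzol and sequenced from TruSeq stranded mRNA libraries. Per the labels, reads were trimmed with cutadapt, aligned with TopHat and counted with HTSeq on mm10, and the strand and overlap settings of the counting are not given in the sources used here. The deposited files hold raw counts for 32654 RefSeq transcripts, and the bookkeeping rows were left out of library sizes (no-feature reads were 50.5 to 58.4% of each file, and ambiguous and non-unique rows were 0). Because transcripts of 1 gene and near-identical genes can share reads, levels of such copies are uncertain.

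Symbols came from RefSeq and GENCODE names and 268 transcripts had none. Counts were fitted with edgeR 4.0.16 in R 4.3.3 (TMM factors, filterByExpr with a minimum count of 10, 1 mean per day over all 6 libraries, quasi-likelihood test, Benjamini-Hochberg adjustment over 18351 transcripts), and then the transcript with the highest mean count stood for each gene. Standard errors and 95% intervals are Wald values on the quasi-likelihood spread, and the common biological coefficient of variation was 0.104. With 2 cultures a day the p-values measure the spread between few samples. Named genes with at most 3 counts in each library of a day were given as a ratio of counts with an exact interval, which covers counting error only.

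The members, the 45 function lists and 5 marker lists were chosen with earlier results of these data known, and the lists are described by counts and medians, without a test of the list. Named genes are the 12 largest rises and 12 largest falls (called, average log2 CPM of at least 1, days not overlapping), up to 3 rises and 3 falls per list, the 5 largest per later course and direction (average log2 CPM of at least 3), 16 genes set whatever they did, the markers, and the promoter genes, with Bcl2a1a, Bcl2a1b, Bcl2a1d, Ndufa4l2 and Slc2a4 added after their values were seen. A few of these are not reported here. Promoters were 250 upstream bases in RefSeq (GRCm38.p6). Alternatives were DESeq2 1.42.0, other scalings, no filter, 1 transcript per gene in the fit, only 4 libraries, a replicate block, each library left out in turn and a wider margin for complete changes. The statistics scripts were tested on simulated data.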

Additional observations from a re-analysis of the deposited data

How the results depend on the processing

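The number of genes called for day 2 against day 0 was 7743, and it lay between 5756 and 8227 when 1 library was left out, the lone culture of a day being assumed to vary like the others. DESeq2 called 7300 genes, 7178 of them shared with the 7743 in the same direction. Deviations of same-numbered libraries correlated between days at 0.032 to 0.079, which gave little sign of pairing by replicate number. Such values cannot exclude a shared origin, which no source used here describes. The fit with the replicate block called 7697 genes, 7603 of them shared. The block changed 1 call among the 285 named genes, that of Psmb9 (adjusted p = 0.052).

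Which changes were complete was the least stable result. A margin of 2-fold gave 1174 complete and 631 undetermined genes. Leaving out 1 library gave 402 to 805 complete, 335 to 1206 continuing, 21 to 215 returning and 827 to 2059 undetermined genes. Over the same libraries left out, the called members numbered 12 to 50 for ribosomal proteins, 12 to 19 for erythroid factors, 12 to 18 for progenitor factors, 27 to 54 for oxidative phosphorylation, 4 to 11 for elongation regulators and 2 to 5 for granulocyte and macrophage markers.

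Of the 285 named genes, all were the same in direction and call with relative log expression factors, with globin transcripts left out of scaling, without the filter and with 1 transcript per gene in the fit. The other settings left 281 unchanged with DESeq2, 284 with only the 4 libraries, 277 with total counts, and 284, 271, 264 and 260 without replicates 1 and 2 of day 0 and replicates 1 and 2 of day 2. Only Cdkn1b took a call in the direction opposite to its own value, without replicate 2 of day 0 (0.29). Over the libraries of days 0 and 2 left out in turn, its change ran from -0.25 to 0.29. The causes of these differences were not tested. The effect of depth was not tested, and 12381 of 23896 genes with a symbol passed the count filter. Of these, 110 genes had at most 3 counts in each day 0 library but not in each day 2 library, and 80 the reverse. The fitted folds of these genes, which enter the counts and the order of the largest changes, depend on the prior count.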
